A study of Mus musculus with 15 samples.

Results

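The genes described here encode 9 enzymes that carry pyruvate into and around the tricarboxylic acid (TCA) cycle: Pdha1 and Dlat of the pyruvate dehydrogenase (PDH) complex, and Cs, Idh3a, Ogdh, Sucla2, Sdha, Fh1 and Mdh2 of the cycle itself. They were taken by symbol as 1 named subunit or enzyme for most steps, not by their values, and are 9 of the 45804 genes listed by a unique symbol in the cecal expression table. All 9 passed the filter on low values, as did 11971 genes in all. They were compared between 7 mice with antibiotic-induced microbiome depletion (AIMD) and 8 vehicle-treated mice.

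The PDH complex turns pyruvate from glycolysis into acetyl-CoA inside mitochondria, and kinases switch it off by phosphorylating its first subunit. The TCA cycle oxidises acetyl-CoA from sugars, fatty acids and ketone bodies and passes the electrons to the respiratory chain. Epithelial cells of the large bowel are known for using butyrate made by bacteria as a main fuel, which enters the cycle as acetyl-CoA without passing through PDH.

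Both groups were wild-type (WT) C57BL/6 mice, male and fed normal chow by the methods. The labels give an age of 20 weeks, although the starting age and the length of treatment in the methods make a lower one. A cocktail of the antibiotics ampicillin, neomycin, vancomycin and metronidazole with the antifungal amphotericin B was gavaged 2 times a day over 30 days in AIMD mice, and water in its place in vehicle-treated mice. RNA came from whole ceca emptied of content, so muscle, nerve and immune cells of the wall were included, and each library came from 1 mouse. The values are FPKM, a read count divided by the length of the gene and by a size factor of the library, so that levels of different genes can be set beside each other.

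The whole reads recovered from the FPKM came to between 8679673 and 18108580 per AIMD mouse and between 4372414 and 14405945 per vehicle-treated mouse, and the 9 genes had between 217 and 12792 reads each in a mouse. Vehicle mouse 8 stood apart: it had the fewest reads, its median correlation with the other vehicle-treated mice was 0.922 where every other mouse had at least 0.957 with its own group, and it had the lowest vehicle value for 6 of the 9 genes. Its summed FPKM of 7 smooth muscle markers was 3037, against a median of 1061 over vehicle-treated mice. In vehicle mouse 2, 12.3% of the reads lay on the gene Yam1, against at most 0.622% in every other mouse. The calls of members, partner subunits and ratios that changed without this mouse are given below, with only some of those of other genes. The 13 clock genes placed the mice in 2 sets, with AIMD mice 1 to 3 and vehicle mice 1 to 4 in the low set and the rest in the high set. Reads of the mitochondrial chromosome took 4.28 to 10.9% of the reads in AIMD mice and 6.92 to 26.2% in vehicle-treated mice. The part of these differences in the results below was not tested except where values without mouse 8, without mouse 2 or within the clock-gene sets are given.

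Transcripts of 3 of the 9 enzymes were higher in AIMD mice and none was lower. The mean FPKM was 1.52 times as high for Fh1 (fumarase), 1.46 times for Idh3a (the catalytic subunit of NAD-dependent isocitrate dehydrogenase) and 1.45 times for Mdh2 (mitochondrial malate dehydrogenase). Pdha1, Dlat, Cs, Ogdh, Sucla2 and Sdha did not pass the threshold of 0.05 on the adjusted p from limma. Over all 11971 tested genes, 36.0% passed it, 19.4% as higher and 16.6% as lower in AIMD mice, so that 3 of 9 is close to the share of all genes and is no result about these enzymes as a group. At an unadjusted p under 0.05 limma gave 3 higher and 1 lower (Sucla2), limma voom on the recovered reads called the same 3 higher and Sucla2 lower, and the exact rank-sum test called the 3 alone. The median log2 fold change, on log2(FPKM + 0.5), was 0.14 over the 9 genes and 0.01 over all tested genes. No member had groups without overlap, which 8.57% of all tested genes had.

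**Figure D1:**
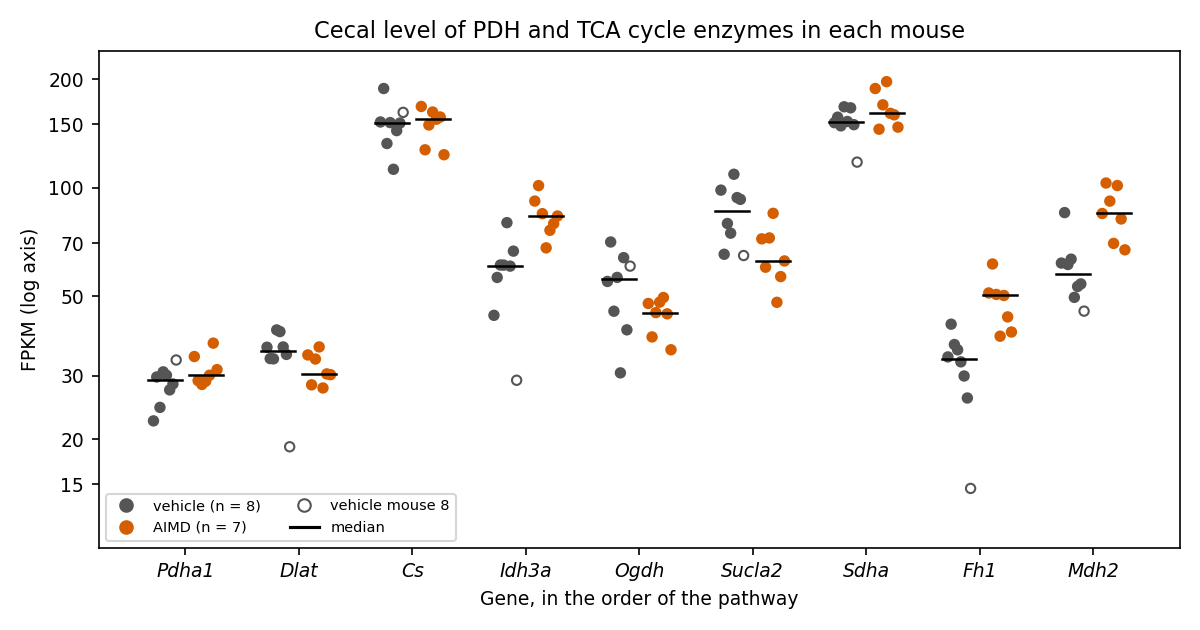
FPKM (log axis) of the 9 genes in each of 8 vehicle-treated and 7 AIMD mice, with a line at the median of each group and an open circle for vehicle mouse 8. The AIMD points of Idh3a, Fh1 and Mdh2 lie mostly above the vehicle points, those of Sucla2 mostly below, and those of Cs and Pdha1 among them.

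Neither Pdha1 nor Dlat of the PDH complex passed the threshold. Pdha1 lies on chromosome X from 160122209 to 160138413 (GRCm38) and encodes the alpha subunit of E1, the part that decarboxylates pyruvate and carries the phosphorylation sites. Its FPKM ran from 28.4 to 37.0 in AIMD mice, with a median of 30.1, and from 22.5 to 33.2 in vehicle-treated mice, with a median of 29.2. The log2 fold change was 0.14, with a 95% interval from -0.08 to 0.36 (limma adjusted p = 0.305). Dlat, on chromosome 9 from 50634633 to 50659780, encodes E2, which hands the acetyl group to coenzyme A. It ran from 27.8 to 36.1 in AIMD mice (median 30.4) and from 19.1 to 40.3 in vehicle-treated mice (median 35.2). Vehicle mouse 8 alone was below 33 in its group. The log2 fold change of Dlat was -0.09 (interval -0.38 to 0.21, limma adjusted p = 0.654) and -0.20 without mouse 8 (adjusted p = 0.0988).

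Cs, on chromosome 10 from 128337734 to 128362479, encodes citrate synthase, which joins acetyl-CoA to oxaloacetate, and whose activity is widely used as a measure of mitochondrial content. Its FPKM ran from 123 to 168 in AIMD mice (median 155) and from 112 to 189 in vehicle-treated mice (median 151), so the AIMD values lay inside the vehicle range. The log2 fold change was 0.00 and its 95% interval ran from -0.25 to 0.25 (limma adjusted p = 0.993). A sequence overlap with the related gene Csl covers 2.01% of the 50-base windows of Cs.

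Idh3a, on chromosome 9 from 54586334 to 54604661, ran from 68.1 to 101 FPKM in AIMD mice (median 83.4) and from 29.2 to 80.0 in vehicle-treated mice (median 60.8). The groups overlapped little: 4 AIMD mice were above every vehicle-treated mouse, and 7 vehicle-treated mice were below every AIMD mouse. Means were 83.6 ± 10.8 (SD, n = 7) under AIMD and 57.4 ± 15.1 (SD, n = 8) under vehicle, and the log2 fold change was 0.58 ± 0.17 (SE, limma adjusted p = 0.0148). Without vehicle mouse 8, which had the lowest value of the group, it was 0.45 (adjusted p = 0.0105).

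Ogdh, on chromosome 11 from 6291633 to 6356642, encodes the E1 subunit of 2-oxoglutarate dehydrogenase, which releases the second carbon dioxide of the cycle. Its FPKM ran from 35.5 to 49.5 in AIMD mice (median 45.0) and from 30.6 to 70.7 in vehicle-treated mice (median 55.6). The vehicle-treated mice were spread more widely, with a coefficient of variation of 25.0% against 11.9%, and their range held all AIMD values. The log2 fold change was -0.22 (interval -0.56 to 0.11, limma adjusted p = 0.290).

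Sucla2, on chromosome 14 from 73525319 to 73596142, encodes the subunit that makes succinyl-CoA ligase use ADP. It ran from 48.1 to 84.9 FPKM in AIMD mice (median 62.6) and from 64.8 to 109 in vehicle-treated mice (median 86.2). The groups overlapped in part, and 4 AIMD mice lay below every vehicle-treated mouse and 4 vehicle-treated mice above every AIMD mouse. Means were 65.3 ± 12.2 (SD, n = 7) under AIMD and 84.8 ± 16.1 (SD, n = 8) under vehicle, and the log2 fold change was -0.37 ± 0.15 (SE) and just missed the threshold (limma adjusted p = 0.0527). It passed without vehicle mouse 8 (-0.43, adjusted p = 0.0257), without vehicle mouse 2 (-0.42, adjusted p = 0.0311) and without AIMD mouse 4 (-0.44, adjusted p = 0.0268), and over all 26 alternatives the adjusted p ran from 0.0257 to 0.123.

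Sdha, on chromosome 13 from 74322254 to 74350280, encodes the flavoprotein subunit of succinate dehydrogenase, which is also complex II of the respiratory chain. Its FPKM ran from 145 to 197 in AIMD mice (median 161) and from 118 to 168 in vehicle-treated mice (median 152). The lowest vehicle value was that of mouse 8, and the other 7 lay between 148 and 168. The log2 fold change was 0.14 (interval -0.09 to 0.37, limma adjusted p = 0.341) and 0.09 without mouse 8.

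Fh1, on chromosome 1 from 175600374 to 175625635, encodes fumarase, which hydrates fumarate to malate. It ran from 38.7 to 61.4 FPKM in AIMD mice (median 50.2) and from 14.6 to 41.8 in vehicle-treated mice (median 33.4). Only the highest vehicle-treated mouse reached into the AIMD range, and 5 AIMD mice were above it. Means were 47.9 ± 7.88 (SD, n = 7) under AIMD and 31.4 ± 8.22 (SD, n = 8) under vehicle, and the log2 fold change was 0.64 ± 0.18 (SE, limma adjusted p = 0.0119). Vehicle mouse 8 had the lowest value, and without it the log2 fold change was 0.49 (adjusted p = 0.00597).

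Mdh2, on chromosome 5 from 135778480 to 135790398, encodes the enzyme that closes the cycle by oxidising malate to oxaloacetate. It ran from 67.2 to 103 FPKM in AIMD mice (median 84.8) and from 45.4 to 85.3 in vehicle-treated mice (median 57.6). Vehicle mouse 2 held the top vehicle value, and the other 7 vehicle-treated mice were below every AIMD mouse. Means were 85.7 ± 14.1 (SD, n = 7) under AIMD and 59.2 ± 12.3 (SD, n = 8) under vehicle, and the log2 fold change was 0.54 ± 0.14 (SE, limma adjusted p = 0.00704), and 0.49 without mouse 8 (adjusted p = 0.0102). A tissue with fewer cells of a type and one with less RNA per cell cannot be told apart in these bulk libraries.

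The levels of the 9 genes covered about the same span in both groups, and Sdha and Cs headed the order in both. Mean FPKM in vehicle-treated mice was 151 for Sdha, 149 for Cs, 84.8 for Sucla2, 59.2 for Mdh2, 57.4 for Idh3a, 52.8 for Ogdh, 34.1 for Dlat, 31.4 for Fh1 and 28.4 for Pdha1. In AIMD mice it was 167 for Sdha, 149 for Cs, 85.7 for Mdh2, 83.6 for Idh3a, 65.3 for Sucla2, 47.9 for Fh1, 44.1 for Ogdh, 31.5 for Dlat and 31.3 for Pdha1. Of the 16 pairs of neighbours in the 2 orders, 4 had the upper gene above the lower in every mouse. In AIMD mice these were Sdha over Cs (by 0.16 on the log2 scale), Cs over Mdh2 (0.80) and Ogdh over Dlat (0.48), and in vehicle-treated mice Cs over Sucla2 (0.82). Each had the smallest p that the two-sided exact sign-flip permutation test allows, 0.0156 with 7 mice and 0.00781 with 8, and an adjusted p of 0.0625 over the 16 pairs. With p-values bounded in this way, the adjustment does not show that these neighbours were alike. The unadjusted p was under 0.05 for 7 pairs, and the order of the other 9, such as Mdh2 and Idh3a in both groups, was not resolved at that level.

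The partner subunits of these enzymes extended the picture at some steps and not at others. With the 3 other tested PDH subunits and the 10 other tested TCA subunits, 22 subunits were tested, of which 6 were higher in AIMD mice and none lower, beside 36.0% of all tested genes called in either direction. Their median log2 fold change was 0.17. Idh3b, the structural partner of Idh3a, ran from 28.5 to 54.6 FPKM in AIMD mice (median 43.9) and from 12.4 to 33.5 in vehicle-treated mice (median 22.7), a log2 fold change of 0.84 (limma adjusted p = 0.00204). Idh3g, the remaining subunit of that enzyme, did not pass in this fit or in any of 26 alternatives, where its log2 fold change ran from 0.09 to 0.25. Suclg1, the alpha subunit shared by both succinyl-CoA ligases, rose by 0.89 on the log2 scale (limma adjusted p = 0.00532), from a median of 24.4 FPKM in vehicle-treated mice to 47.4 in AIMD mice. Suclg2, the subunit that makes the ligase use GDP, rose by 0.39 (limma adjusted p = 0.0149), from a median of 78.8 to 102.

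Without vehicle mouse 8, the same 6 of 22 subunits were higher and 3 were lower, namely Pdhb (-0.46, limma adjusted p = 0.0182), Sdhd (-0.58, adjusted p = 0.0301) and Sucla2, beside 38.7% of all tested genes called in either direction in the same fit. Pdhb is the beta subunit of E1 and Sdhd a membrane anchor of succinate dehydrogenase. Pdhb also passed with the replicate number as a block in the fit, which leaves out mouse 8 too (limma adjusted p = 0.0251). Over all mice their log2 fold changes were -0.36 (limma adjusted p = 0.103) and -0.41 (adjusted p = 0.213). The count of lower subunits was 1, Sucla2, without vehicle mouse 2, without AIMD mouse 4 and with limma voom, and at an unadjusted p under 0.05 limma gave 7 higher and 2 lower. Dlst, the E2 subunit of 2-oxoglutarate dehydrogenase, had a log2 fold change of 0.41 (limma adjusted p = 0.0694) and passed in 5 of 26 alternatives. They were the fits without vehicle mouse 2 (0.50, limma adjusted p = 0.0240), without AIMD mouse 7 (0.48, adjusted p = 0.0466), after quantile normalization (adjusted p = 0.0252) and with either clock-gene term (adjusted p = 0.00652 and 0.00520). Sdhb, the iron-sulfur subunit, had 0.43 (limma adjusted p = 0.109) and also passed in 5. These were the fits without vehicle mouse 2 (0.53, limma adjusted p = 0.0413), after quantile normalization (adjusted p = 0.0341), with the replicate block (adjusted p = 0.0494) and with either clock-gene term (adjusted p = 0.00782 and 0.00700).

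**Figure D2:**
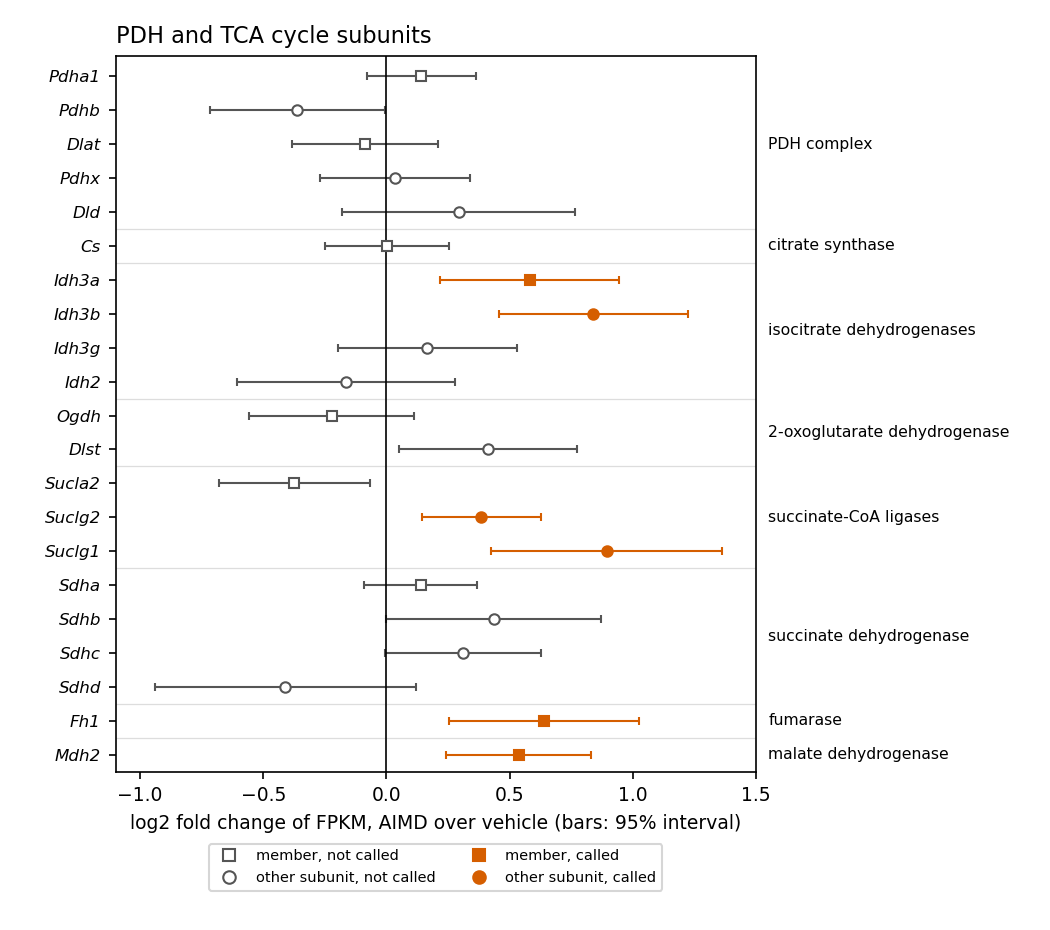
log2 fold change of FPKM (AIMD over vehicle) with its 95% interval for 21 of the 22 tested PDH and TCA cycle subunits, in the order of the pathway. Squares are the 9 genes described here, circles the other subunits, and filled orange marks those with a limma adjusted p under 0.05. The 6 filled marks all lie to the right of 0, and Sucla2 and Pdhb lie to the left.

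Subunits of the same enzyme, and Mdh2 with its cytosolic counterpart, were also compared within each mouse, as 7 ratios. Ranges and medians are given for ratios of plain FPKM, and log2 differences and tests for ratios of FPKM + 0.5. For Sucla2 over Suclg2, the ADP-using over the GDP-using subunit of succinyl-CoA ligase, the ratio ran from 0.504 to 0.787 in AIMD mice (median 0.652) and from 0.800 to 1.40 in vehicle-treated mice (median 1.07). The 2 groups did not overlap. The mean difference was -0.76 on the log2 scale, which passed the threshold after adjustment over the 7 ratios (two-sided exact permutation test, p = 0.000622, adjusted p = 0.00218). The difference ran from -0.82 to -0.70 with each mouse left out in turn. Of the 50-base windows of Suclg2, 15.96% also occur in another gene, mainly the predicted gene Gm15163, and its level is uncertain to that extent, whereas Sucla2 shares none.

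Ogdh over Dlst, the E1 over the E2 subunit of 2-oxoglutarate dehydrogenase, ran from 0.390 to 0.674 in AIMD mice (median 0.550) and from 0.661 to 1.22 in vehicle-treated mice (median 0.730). Of the 7 AIMD mice, 6 were below every vehicle-treated mouse. The mean log2 difference was -0.63 (two-sided exact permutation test, p = 0.000466, adjusted p = 0.00218), although neither gene passed the threshold alone. The other 5 ratios did not pass. They were Pdha1 over Pdhb (log2 difference 0.50, exact permutation test, adjusted p = 0.0984), Mdh2 over its cytosolic counterpart Mdh1 (0.17, adjusted p = 0.0984), Idh3a over Idh3b (-0.26, adjusted p = 0.183), Sdha over Sdhb (-0.30, adjusted p = 0.239) and Dlat over Pdhx (-0.12, adjusted p = 0.276). Pdha1 over Pdhb passed without vehicle mouse 8 (0.64, exact permutation test, adjusted p = 0.0218), and Mdh2 over Mdh1 without vehicle mouse 2 (0.20, adjusted p = 0.0490).

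**Figure D3:**
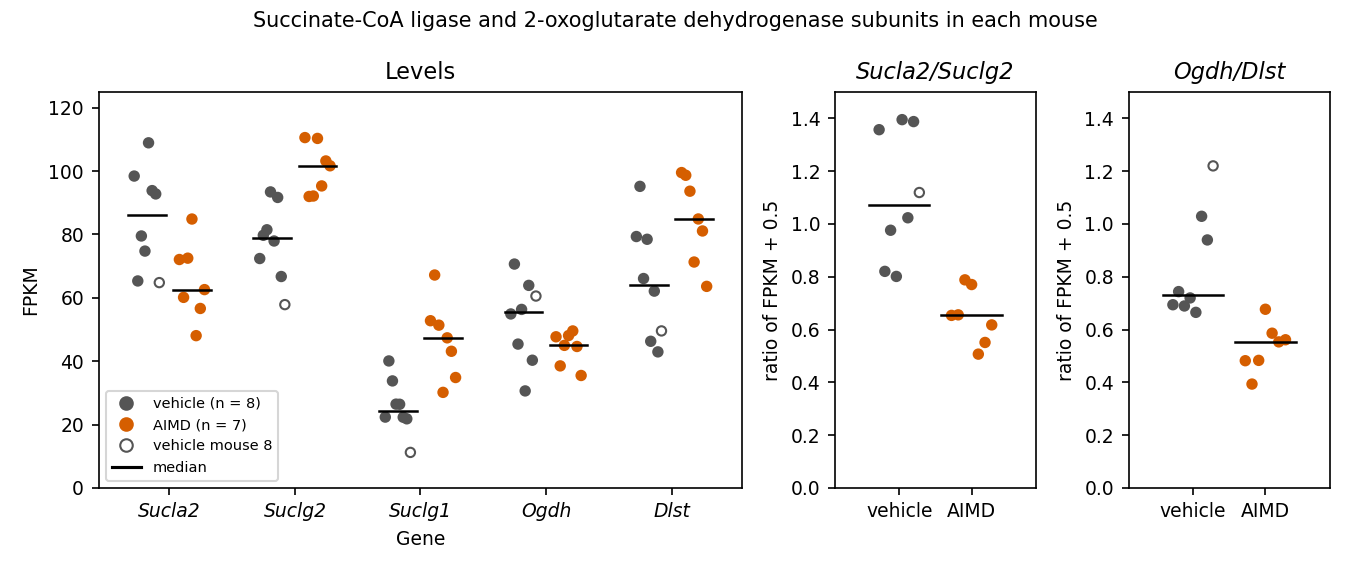
FPKM of the succinyl-CoA ligase subunits Sucla2, Suclg2 and Suclg1 and of Ogdh and Dlst in each mouse (left), and the ratios Sucla2/Suclg2 and Ogdh/Dlst of FPKM + 0.5 (right), with group medians as lines. Every AIMD mouse lies below every vehicle-treated mouse in Sucla2/Suclg2, which in plain FPKM ran from 0.504 to 0.787 against 0.800 to 1.40.

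The sequences before the annotated start are shown for Fh1 and Mdh2, the members with the largest rise and the lowest adjusted p, and for the pair Sucla2 and Suclg2, whose ratio moved. They are the 250 bases before the RefSeq start on GRCm38.p6, read 5′ to 3′ on the strand of the gene. The windows are chr1:175625636-175625885 (minus strand) for Fh1, chr5:135778399-135778648 (plus strand) for Mdh2, chr14:73552536-73552785 (plus strand) for Sucla2 and chr6:95718847-95719096 (minus strand) for Suclg2. In GENCODE M21 the gene Mdh2 begins at 135778480, inside its window. The gene Sucla2 begins there at 73525319, far before its window, which therefore lies within the annotated gene. Of 26 RefSeq starts checked over the PDH and TCA subunits, 17 were followed by bases found in an M21 transcript of the gene. Capitals mark GGGCGG (the GC box), CCAAT and CTCGCGAG on either strand.
Fh1: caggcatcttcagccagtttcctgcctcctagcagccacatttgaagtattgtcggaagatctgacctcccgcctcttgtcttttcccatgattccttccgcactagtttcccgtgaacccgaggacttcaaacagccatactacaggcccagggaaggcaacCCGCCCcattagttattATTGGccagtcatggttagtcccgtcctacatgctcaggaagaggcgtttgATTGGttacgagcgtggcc
Mdh2: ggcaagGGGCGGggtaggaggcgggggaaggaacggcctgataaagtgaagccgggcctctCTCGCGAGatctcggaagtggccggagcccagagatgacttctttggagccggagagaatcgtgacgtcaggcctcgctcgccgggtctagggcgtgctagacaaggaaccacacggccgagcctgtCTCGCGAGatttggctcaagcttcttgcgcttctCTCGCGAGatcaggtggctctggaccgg
Sucla2: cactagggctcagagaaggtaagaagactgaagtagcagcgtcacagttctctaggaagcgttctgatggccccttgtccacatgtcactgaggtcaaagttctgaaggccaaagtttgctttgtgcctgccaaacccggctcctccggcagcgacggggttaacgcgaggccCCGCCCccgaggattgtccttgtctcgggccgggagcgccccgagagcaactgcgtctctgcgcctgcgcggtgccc
Suclg2: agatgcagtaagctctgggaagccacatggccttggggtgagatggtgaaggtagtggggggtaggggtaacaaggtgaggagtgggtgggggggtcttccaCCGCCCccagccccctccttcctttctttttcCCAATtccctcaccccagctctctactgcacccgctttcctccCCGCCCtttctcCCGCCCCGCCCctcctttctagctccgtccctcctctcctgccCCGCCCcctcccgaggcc

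RefSeq promoters were found for 8 of the 9 genes, and Idh3a had no entry. Fh1 held 1 GC box and 2 CCAAT boxes, the nearer one 15 to 19 bases before the start. Mdh2 held CTCGCGAG 3 times, at 182 to 189, 55 to 62 and 21 to 28 bases before the RefSeq start, and 1 GC box. The sites at 55 to 62 and 21 to 28 bases lie inside the gene as M21 gives it. CTCGCGAG was chosen after the Mdh2 sequence was seen, is its own reverse complement, and stood before at least 1 start of 0.862% of 27025 genes. Sucla2 held 1 GC box and Suclg2 held 5, of which a pair share a base. A GC box stood before 6 of the 8 genes and 35.4% of all genes, and a CCAAT box before 4 of the 8 and 37.5%. Other letters searched on both strands were CCGGAAG (bound by GABP), GCGCATG (NRF1), AAGGTCA (estrogen-related receptors) and CACGTG (the E-box). CCGGAAG and AAGGTCA stood before none of the 8 genes, against 7.83% and 4.70% of all genes. GCGCATG and CACGTG stood only before Ogdh, at 2 and 3 of its 6 starts, against 3.68% and 6.86% of all genes. A match is only a run of letters, and its absence says nothing of the factor.

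Among the enzymes that switch PDH on and off, the kinase genes moved in both directions. Of 6 tested kinases and phosphatases, 1 was higher and 2 were lower in AIMD mice, beside 36.0% of all tested genes called in either direction. The count is no result about these genes as a group. Pdk4, a kinase known to be induced by fasting and fat, ran from 2.79 to 4.09 FPKM in AIMD mice (median 3.71) and from 5.87 to 19.1 in vehicle-treated mice (median 8.54). All AIMD mice were below all vehicle-treated mice, and the log2 fold change was -1.28 ± 0.18 (SE, limma adjusted p = 7.14e-05), or -1.14 without vehicle mouse 8, the highest of its group. Pdk1, a kinase known to be induced by low oxygen, ran from 9.45 to 16.6 FPKM in AIMD mice (median 12.1) and from 4.67 to 7.79 in vehicle-treated mice (median 6.54). The groups did not overlap in the other direction, with a log2 fold change of 0.83 ± 0.14 (SE, limma adjusted p = 0.000261). Pdk3 ran from 10.8 to 17.6 FPKM in AIMD mice (median 14.1) and from 14.98 to 31.2 in vehicle-treated mice (median 24.7), and fell by 0.68 on the log2 scale (limma adjusted p = 0.00376). Pdk2 (0.42, limma adjusted p = 0.134) and the phosphatases Pdp1 (0.27, adjusted p = 0.247) and Pdp2 (0.26, adjusted p = 0.230) did not pass.

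**Figure D4:**
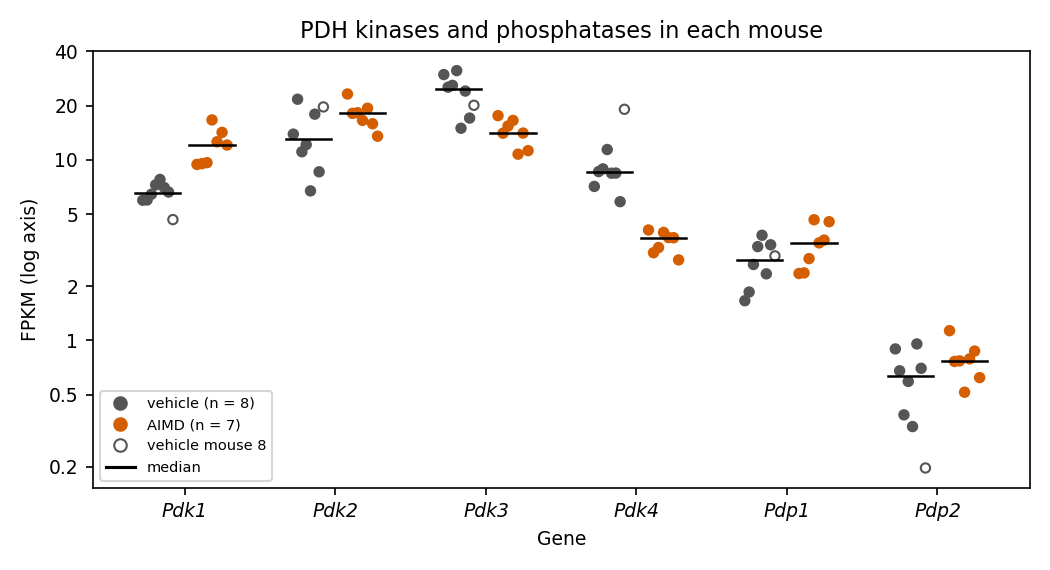
FPKM (log axis) of the 4 PDH kinases and 2 PDH phosphatases in each vehicle-treated and AIMD mouse, with group medians as lines and an open circle for vehicle mouse 8. Pdk1 lies higher and Pdk4 lower in every AIMD mouse than in any vehicle-treated mouse, while Pdk2, Pdk3, Pdp1 and Pdp2 overlap.

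Other genes around the cycle were read from lists of its assembly, fuel supply and transport. The counts called in these lists, here and below, stand beside 36.0% of all tested genes called in either direction. None of them is read as a result about its list. The mitochondrial pyruvate carrier subunits did not pass, with log2 fold changes of 0.08 for Mpc1 (limma adjusted p = 0.736) and 0.09 for Mpc2 (adjusted p = 0.781). Neither was called at an unadjusted p under 0.05 or with limma voom. Mpc1 was barely detected, at 0.467 to 0.923 FPKM (15 to 24 reads) in AIMD mice. In vehicle-treated mice it had 0.0863 to 1.02 FPKM (2 to 17 reads). At this level the pseudocount of 0.5 shrinks fold changes, and Mpc1 also shares 50-base windows with Mpc1-ps. The test therefore cannot show whether Mpc1 changed. Of 5 cytosolic counterparts, Me1, the malic enzyme that makes pyruvate and NADPH, fell by 1.34 on the log2 scale without overlap (limma adjusted p = 0.000175), from 4.17 to 17.2 FPKM in vehicle-treated mice to 2.35 to 3.07 in AIMD mice. Its count is uncertain, since it has 22.9% of its 50-base windows in common with other genes, mainly Gm7049. Mdh1, the cytosolic malate dehydrogenase of the malate-aspartate shuttle, rose by 0.37 (limma adjusted p = 0.0380), a call that 11 of 26 alternatives lost, the fit without vehicle mouse 8 among them (0.30, adjusted p = 0.0537). In that fit Idh1 was lower (-0.61, limma adjusted p = 0.00382) and Acly higher (0.24, adjusted p = 0.0393), although neither passed over all mice.

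Of 4 assembly factors of succinate dehydrogenase, Sdhaf1 fell by 0.63 on the log2 scale (limma adjusted p = 0.00422) and Sdhaf2 rose by 0.36 (adjusted p = 0.0245), a call lost without AIMD mouse 1 (adjusted p = 0.0530). The other 2 just missed the threshold, Sdhaf3 at -0.44 (limma adjusted p = 0.0564) and Sdhaf4 at -0.52 (adjusted p = 0.0535), and were lower in 6 and 9 of 26 alternatives. Without vehicle mouse 8 they had -0.54 (limma adjusted p = 0.0153) and -0.65 (adjusted p = 0.00683), and all 4 factors passed in that fit, without AIMD mouse 3, with the replicate block and with limma voom. Of 10 tested genes that feed or drain the cycle, 1 passed: Pccb, a subunit of propionyl-CoA carboxylase, which brings propionate towards succinyl-CoA, fell by 0.56 (limma adjusted p = 0.0194). Without vehicle mouse 8, Pcca of the same carboxylase was lower as well (-0.38, limma adjusted p = 0.0354). With the replicate block, Mcee of this list was lower (-0.41, limma adjusted p = 0.0161). Of 5 tested genes of other 2-oxoacid dehydrogenases, Ppm1k, the phosphatase that activates branched-chain amino acid breakdown, fell by 0.52 (limma adjusted p = 0.00339). Dbt of this list was lower without vehicle mouse 8 (-0.35, limma adjusted p = 0.0187). Of 4 genes for attaching lipoic acid, the cofactor of Dlat and Dlst, Lipt2 fell by 0.43 (limma adjusted p = 0.0472), a call that 14 of 26 alternatives lost.

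None of the 5 carriers of cycle intermediates and none of 12 genes of the outer membrane, import and chaperones passed in the fit over all mice, and their median log2 fold changes were -0.12 and 0.25. At an unadjusted p under 0.05, limma gave 0 carriers, and 4 of the 12 as higher, and limma voom gave 1 carrier as lower and 2 of the 12 as higher, none of which passed its adjustment. Some passed in alternatives, and those named here were chosen after their values were seen. Tomm40, the channel of the outer membrane, had 0.60 (limma adjusted p = 0.0729) and was higher without vehicle mouse 2 (0.76, adjusted p = 0.0127), without AIMD mouse 4 (0.70, adjusted p = 0.0432), with the replicate block and with either clock-gene term. Without vehicle mouse 8 the chaperone Hspa9 was lower (-0.35, limma adjusted p = 0.0258), as was the 2-oxoglutarate carrier Slc25a11 (-0.31, adjusted p = 0.0162). Vdac3, Hspd1 and Tfam were higher with either clock-gene term, with limma adjusted p from 0.0129 to 0.0428.

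Of 9 tested regulators of mitochondrial genes, 4 were higher, beside 19.4% of all tested genes called higher. The count called ran from 2 to 5 with single mice left out, and was 2 without AIMD mouse 1, 5, 6 or 7 or vehicle mouse 1. Myc rose by 0.73 (limma adjusted p = 0.00704) and Ppara, a receptor for fatty acids, by 0.49 (adjusted p = 0.00507). Gabpa rose by 0.41 (limma adjusted p = 0.0298), lost in 6 of 26 alternatives, and its partner Gabpb1 by 0.26 (adjusted p = 0.0467), lost in 15.

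The 3 higher members were also higher within each set of mice defined by clock genes. These sets come from the data, with 3 AIMD and 4 vehicle-treated mice in the low set and 4 of each in the high set, and the log2 differences are given without a test. For Fh1 they were 0.55 and 0.78, and the groups did not overlap in either set. For Idh3a they were 0.74, without overlap, and 0.46, with overlap. For Mdh2 they were 0.46, with overlap, and 0.64, without. The difference of Sucla2 was -0.21 in the low set and -0.52 in the high set, with overlap in both. The ratio of Sucla2 over Suclg2 did not overlap in either set, with log2 differences of -0.47 and -1.02. With the set as a factor in limma, Idh3a, Fh1 and Mdh2 kept their calls and Sucla2 passed (adjusted p = 0.0469).

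**Figure D5:**
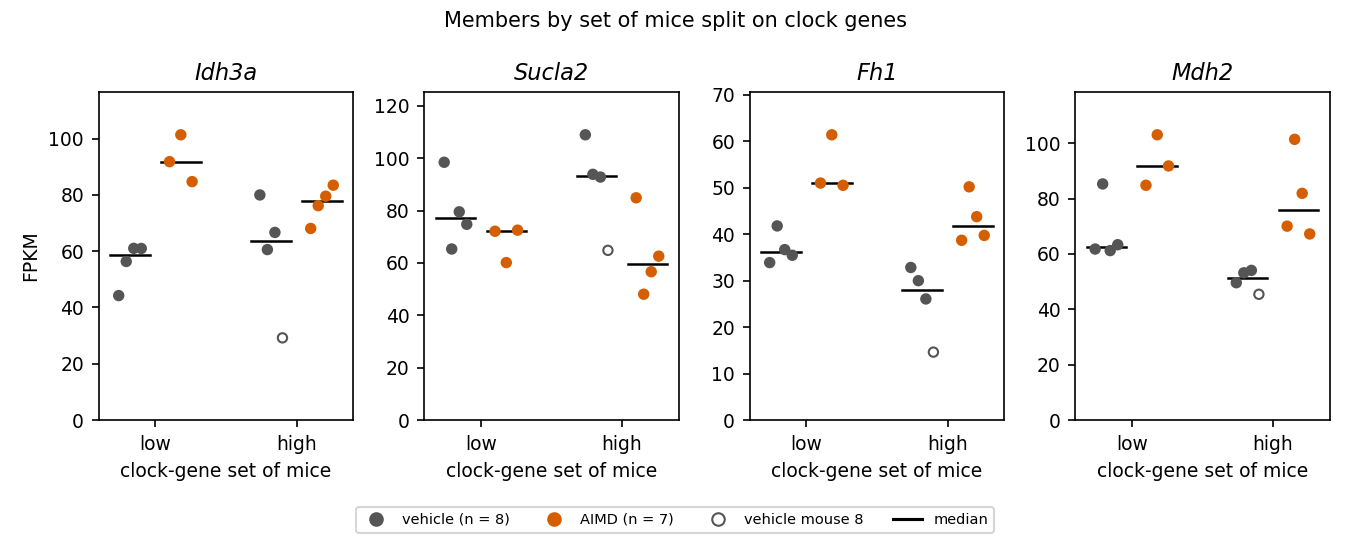
FPKM of Idh3a, Sucla2, Fh1 and Mdh2 in each mouse, by the low and high set of mice from the levels of 13 clock genes, with medians as lines. Fh1 does not overlap between AIMD and vehicle-treated mice in either set, Idh3a does not in the low set and Mdh2 does not in the high set.

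Some marker genes of the cells of the cecal wall were called as well, beside 36.0% of all tested genes called in either direction. With single mice left out, the count called ran from 1 to 4 for epithelial markers and from 1 to 3 for smooth muscle markers. For fibroblast and endothelial markers it ran from 0 to 1. All 8 epithelial markers, Epcam among them, were detected in every mouse, with a summed FPKM of 4927 to 7946 in AIMD mice and 3952 to 6350 in vehicle-treated mice, and 2 of 8 were higher in AIMD mice. Of 7 smooth muscle markers 1 was lower, and their sum was 214 to 817 in AIMD mice and 519 to 3037 in vehicle-treated mice. All 4 tested neuron and glia markers were lower, with sums of the whole list of 2.67 to 4.51 and 4.78 to 70.1, and Sox10 was at 0 in some mice. Markers of the remaining cell types overlapped between the groups in their sums. Goblet cell markers (1 of 6 higher, 1 lower) had sums of 5754 to 11777 and 3313 to 9846. Immune cell markers (2 of 6 tested higher, 1 lower) had sums of 56.9 to 230.0 and 42.0 to 86.0, the wider range being that of AIMD mice. Fibroblast and endothelial markers (1 of 7 higher) had sums of 31.9 to 76.0 and 24.2 to 99.0. Adipocyte markers (1 of 2 tested lower) had sums of 11.3 to 18.2 and 10.9 to 36.0, with Adipoq, Plin1 and Lep at 0 in some mice. The part of these differences in the values of the 9 enzymes was not tested.

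The genes with the profile most like the mean of the 9 were Etf1, Ndrg3, Setd3, Usp43 and Vps36. Likeness was the root mean square difference over the 15 mice of log2 values set relative to the mean of vehicle-treated mice. It was 0.0855, 0.0930, 0.101, 0.110 and 0.112 for these genes in that order, against a median of 0.407 over the 5492 genes compared.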

How the data were processed

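Cecal RNA of 7 AIMD and 8 vehicle-treated mice was sequenced as stranded poly-A libraries with 50-base single reads. For the deposited FPKM, given by gene symbol for each mouse, the authors aligned reads with STAR (GRCm38) and used featureCounts with the GENCODE gene models. The authors tested counts with DESeq2. How counts became FPKM is not given in the sources used here, but the divisor per mouse followed a median-of-ratios size factor of the reads, not their total. The time of sacrifice, a factor in the design of the study, is not in the labels and was not used.

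All 24279 genes above 0 held whole multiples of 1 read (100% of genes, tolerance 0.02), which gave the reads per mouse. A gene above 0 in only 1 mouse passes by construction, so this share was partly fixed in advance. For 66.8% of the genes the value of 1 read also matched the gene length in GENCODE M21. Reads differed by up to 4.14 times between mice, and counting error of low genes is larger in shallow mice. Of 45808 rows, 4 with a repeated symbol were left out, and 27 had symbols turned into dates.

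After division by a median-of-ratios size factor per mouse, values were taken as log2(FPKM + 0.5). Genes with at least 0.5 FPKM in at least 7 mice were tested with limma 3.58.1 (R 4.3.3, lmFit and eBayes with a trend), two-sided, with Benjamini-Hochberg adjustment over all tested genes and a threshold of 0.05. Fold changes on this scale understate those of low genes. Ratios were tested over all 6435 ways to place 7 of the 15 mice (smallest p 0.000155). Positions are from GENCODE M21, and promoters from RefSeq on GRCm38.p6. Shared reads were judged by the 50-base windows a gene has in common with other genes. Other software was scipy 1.17.1, pandas 2.3.3, numpy 2.4.6 and matplotlib 3.10.9 under Python 3.11.15, and the tests were tried on simulated data.

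The genes, lists and tests were chosen with earlier results of these data known. The text names the 9 genes and listed genes past the threshold, some of them only in an alternative. It also names up to 4 others per list with the highest mean FPKM, Idh3g as the remaining partner of Idh3a, and the 5 genes of most similar profile. One listed gene is not reported here, and the counts include it. Other scalings, pseudocounts, filters and tests, a replicate block, clock-gene terms and leaving out each mouse were tried as alternatives.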

Additional observations from a re-analysis of the deposited data

Results flagged for a closer look

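Of 32 groups checked for a sample far from the others (9 genes and 7 ratios in 2 groups each), 4 were marked, and chance marks about 1 in 20. Vehicle mouse 8 had the lowest FPKM of its group for Dlat, 19.1, where the next mouse had 33.5. It was also the lowest for Sdha, at 118 FPKM, where the next mouse had 148. The same mouse had the highest ratio of Pdha1 over Pdhb among vehicle-treated mice, 0.448, where the next had 0.257. Vehicle mouse 2 had the highest FPKM of its group for Mdh2, 85.3, where the next mouse had 63.3. Mouse 8 had the fewest reads and the highest summed smooth muscle markers of the vehicle-treated mice, and the part of either in these values was not tested.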

How the results depend on the processing

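Over 26 alternatives (scaling, pseudocount, filter, test, replicate block, clock-gene terms and each mouse left out), Idh3a, Fh1 and Mdh2 kept their direction and their calls, with log2 fold changes of 0.45 to 0.66, 0.49 to 0.71 and 0.49 to 0.61. Sucla2 passed the threshold in 6 of them, and Pdha1, Dlat, Cs, Ogdh and Sdha in none. The other filters, the rank-sum test and the clock-gene score, which was centred within each group, leave the fold change unchanged by construction. Leaving out the size factors, which ran from 1.0101 to 1.0104, could barely change it. These alternatives therefore say nothing about direction or size. Leaving out single mice, the count over all tested genes ran from 3551 to 4638 and the count of the 9 genes called from 3 to 4. The log2 differences then ran from 0.38 to 0.64 for Pdha1 over Pdhb, -0.17 to -0.06 for Dlat over Pdhx, -0.33 to -0.17 for Idh3a over Idh3b, -0.82 to -0.70 for Sucla2 over Suclg2, -0.40 to -0.18 for Sdha over Sdhb, -0.70 to -0.55 for Ogdh over Dlst and 0.13 to 0.20 for Mdh2 over Mdh1. Of the 22 subunits, 9 were higher after quantile normalization and with either clock-gene term, against 6 in the fit as reported. Of the 12 genes of the outer membrane, import and chaperones, 0 passed as reported, 4 and 5 with the clock-gene terms and 1 in 6 other alternatives, and of the 5 carriers, 1 passed in 3 alternatives and 0 in the others.

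The labels do not say what the replicate numbers mark. In 6 of 7 pairs both mice were in the same clock-gene set. The correlations of their deviations from the group means ran from -0.35 to 0.43, and 1 of 7 pairs correlated best with its own number. With the replicate block, which drops vehicle mouse 8 for want of a partner, the 3 calls were kept. The log2 fold changes were 0.45 for Idh3a, 0.49 for Fh1 and 0.49 for Mdh2, and Sucla2 had -0.43 (limma adjusted p = 0.0528). Pdha1 over Pdhb passed, at 0.64 (exact sign-flip permutation test over the 7 pairs, adjusted p = 0.0365). A mean of pair differences is the difference of group means over the same mice. These sizes are therefore those without mouse 8 by construction.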
